A study of Mus musculus with 7 samples.

Results

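Chemokines are small secreted proteins that draw leukocytes along a concentration gradient, and the 10 described here are ones that muscle cells are known or thought to make: Cxcl1, Cxcl5, Cxcl10, Cxcl12, Cxcl14, Cxcl16, Cx3cl1, Ccl2, Ccl7 and Ccl5. They are matched by symbol, 10 of the 26607 genes listed for every library, and no value enters that rule, although earlier results of these data were known when they were picked. In C2C12 myotubes under electrical pulse stimulation (EPS), Cxcl14 was lower in the EPS group and passed the thresholds used here in limma on CPM and in edgeR on reads. Cxcl1 and Cxcl5 were higher in most EPS libraries, by an amount that passed the same thresholds in edgeR but not in limma.

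The samples were 7 RNA-seq libraries of C2C12 myotubes, 3 control and 4 EPS. C2C12 is an established clonal line of mouse myoblasts, and both groups were differentiated into myotubes in low-serum medium. The control group was given no stimulation, and the EPS group was given repeated short electrical pulses for a day, a cell model of contracting muscle, followed by a short rest. The libraries measured transcripts, not secreted protein, and a culture also holds unfused cells that cannot be told apart from myotubes here. The study asked which transcripts respond to such contraction without other organs. A line of 1 clone in a dish holds no leukocytes, vessels or nerve, and the labels do not say whether the libraries of a group came from separate cultures, so the p-values measure only the spread between these libraries.

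The libraries held between 16616917 and 22120641 reads, and 1 read was worth between 0.0452 and 0.0602 CPM (reads scaled to the total on the listed genes). A count of 0 allows up to 3 reads, that is 0.136 to 0.181 CPM, and this floor covers counting error only. Control replicate 4 stood apart, with 359 genes of 1 to 5 reads where the rest had 2670 to 3181. It had 14014 genes above 0 where the rest had 16144 to 16984, so the floor of 3 reads may not hold for its zeros. For some results that depend on control replicate 4, values are given with and without it. Counts at an unadjusted P under 0.05 in limma, here and below, are to be read against 11.6% of all 19144 tested genes at that threshold. Calls, at more than 2-fold and an unadjusted P under 0.01, are to be read the same way. Over all genes limma called 0.966% higher and 0.439% lower, edgeR 1.72% and 1.57%, and DESeq2 3.06% in either direction. The 9 muscle markers were present in each library, with a summed level of 17423 to 20728 CPM in the control group and 11857 to 18596 CPM in the EPS group. Of the 9, 8 had a negative log2 fold change (median -0.44), with 0 at an unadjusted P under 0.05 and 0 calls in limma. In edgeR and in DESeq2 1 was called, Myog, a factor of muscle differentiation, at 473, 565 and 1794 CPM in the control and 281, 605, 406 and 278 CPM in the EPS group. Control replicate 4 gives most of this difference: without it the control mean of Myog was 519 CPM in place of 944, against 392 CPM in the EPS group, and the log2 fold change in limma was -0.47 in place of -1.07. The edgeR and DESeq2 fits were not repeated without it.
The leukocyte list summed to 6.94 to 10.3 CPM in the control and 6.94 to 14.4 CPM in the EPS group, most of it from Cd14. Of 6 tested genes limma, edgeR and DESeq2 each called 0, with 1 at an unadjusted P under 0.05 in limma. That gene, Csf1r, had 2, 3 and 0 reads in the control and 8, 6, 5 and 13 in the EPS libraries, and Cd68 had 9 to 24 and 18 to 39 reads. Itgam, with 13, 18 and 0 against 8, 11, 8 and 2 reads, went the other way. So did Lyz2, with 3, 5 and 20 against 5, 2, 4 and 2 reads. Of the 6 tested genes, 3 had a positive log2 fold change in limma and 3 a negative one. Ptprc, which encodes CD45, had at most 1 read in a library, and the macrophage marker Adgre1 had 0 in every library. The endothelial list summed to 0.843 to 1.54 CPM in the control and 0.731 to 1.30 CPM in the EPS group.
The fibroblast list, mostly Col1a1, summed to 575 to 1061 CPM in the control and 508 to 1006 CPM in the EPS group. In limma 0 of 5 were called, with 2 at an unadjusted P under 0.05, and in edgeR and in DESeq2 1 was, Lum, at 4.59 ± 1.41 CPM (SD) over the 3 control libraries and 2.13 ± 1.31 CPM (SD) over the 4 EPS libraries. Pdgfra was at 12.3 to 24.0 CPM in the control and at 27.1 to 34.0 CPM in the EPS group. The cycling list summed to 306 to 359 CPM in the control against 403 to 1049 CPM in the EPS group. Of its 5 genes limma called 0, with 4 at an unadjusted P under 0.05, and edgeR called 2 higher, Mki67 and Ccnb1, as did DESeq2. Over all genes edgeR called 1.72% higher, and DESeq2 called 3.06% in either direction. The part of these marker differences in the chemokine results was not tested. In bulk RNA, fewer cells of a kind and less RNA per cell cannot be told apart.

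Chemokines are sorted into families by the first conserved cysteines of the mature protein. In CXC chemokines a residue stands between the cysteines, in CC chemokines they touch, and in the CX3C family, which has Cx3cl1 as its member, they lie farther apart. CXC chemokines with the residues Glu-Leu-Arg just before the motif bind CXCR2 and attract neutrophils, and those without it act mainly on other cells. CC chemokines such as Ccl2 and Ccl7 attract monocytes through CCR2. Skeletal muscle cells are known to make several of these proteins when damaged, inflamed or contracting.

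The coding sequence around this motif shows the family of each of the 10 members, and is printed from 4 codons before the first cysteine to 3 codons after the last, 5′ to 3′ on the coding strand (GENCODE M21, GRCm38). Capitals mark the codons from the first to the last cysteine of the motif. All lie in exon 2 of the gene except the sequence of Cxcl14, which joins the end of exon 1 to the start of exon 2, so that its coordinates span an intron.
Cxcl1, chr5:90891484-90891513, plus strand: aatgagctgcgcTGTCAGTGCctgcagacc
Cxcl5, chr5:90759715-90759744, plus strand: acggagctgcgtTGTGTTTGCttaaccgta
Cxcl10, chr5:92348172-92348201, minus strand: aggacggtccgcTGCAACTGCatccatatc
Cxcl12, chr6:117171496-117171525, plus strand: ctgagctaccgaTGCCCCTGCcggttcttc
Cxcl14, chr13:56295906-56296113, minus strand: gacgggtccaagTGTAAGTGTtcccggaag
Cxcl16, chr11:70459118-70459147, minus strand: gtcgctggaagtTGTTCTTGTgatcgtacc
Cx3cl1, chr8:94778039-94778074, plus strand: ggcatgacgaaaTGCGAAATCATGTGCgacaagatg
Ccl2, chr11:82036494-82036520, plus strand: gccccactcaccTGCTGCtactcattc
Ccl7, chr11:82046526-82046552, plus strand: aatgcatccacaTGCTGCtatgtcaag
Ccl5, chr11:83529233-83529259, minus strand: gacaccactcccTGCTGCtttgcctac
The bases gagctgcg, Glu-Leu-Arg in the reading frame used here, stand before the capitals in Cxcl1 and Cxcl5 and in no other member. Cxcl1 and Cxcl5 are thus the 2 neutrophil-attracting CXC genes of the set, and Ccl2, Ccl7 and Ccl5 are the 3 CC genes, with the cysteine codons side by side. The coding sequence of Cx3cl1 had 395 codons and that of Cxcl16 had 246, against 91 to 148 in the other 8. Both are known to be made as membrane-anchored proteins with a long stalk, from which proteases cut the soluble chemokine.

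Per length of exon, the most abundant chemokine transcript in both groups was Cxcl12, known as stromal cell-derived factor 1 and a ligand of CXCR4. It had 18.6 ± 2.68 CPM per kb of exon (SD) over the 3 control libraries and 16.2 ± 4.17 CPM per kb (SD) over the 4 EPS libraries. Cx3cl1 followed at 8.37 ± 1.06 CPM per kb in the control and 8.76 ± 0.870 CPM per kb in the EPS group, and in neither group did its libraries overlap with those of Cxcl12. Below Cx3cl1, neighbours in the control order overlapped between libraries as far as Cxcl5: Cxcl14 at 5.83 CPM per kb, Ccl7 at 3.79, Ccl2 at 1.50, Cxcl16 at 1.05 and Cxcl5 at 1.04 CPM per kb. Cxcl1 at 0.220 and Cxcl10 at 0.122 CPM per kb were lower than these 7 genes in each control library, and Ccl5 was listed at 0.
The order differed in the EPS group. Cxcl5 had the third highest mean, 5.77 CPM per kb, with a range from 0.700 to 13.8 that overlapped with every gene from Cxcl12 to Cxcl16. That place rests on EPS replicate 2: without it Cxcl5 had a mean of 3.08 CPM per kb, behind Ccl7 at 3.41 and Ccl2 at 3.11 CPM per kb. Cxcl14 came sixth at 1.76 CPM per kb, behind Ccl7 at 3.70 and Ccl2 at 3.38 CPM per kb. As a share of the summed level per kb of the 10 members in a library, Cxcl14 made up 11.9 to 16.4% in the control group and 3.13 to 6.85% in the EPS group. The share of Cxcl5 was 1.51 to 4.65% in the control and 2.09 to 23.8% in the EPS group. These are descriptions on the scale of CPM per kb, with exon lengths of GENCODE M21 that may not be those the reads were counted on.

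**Figure D1:**
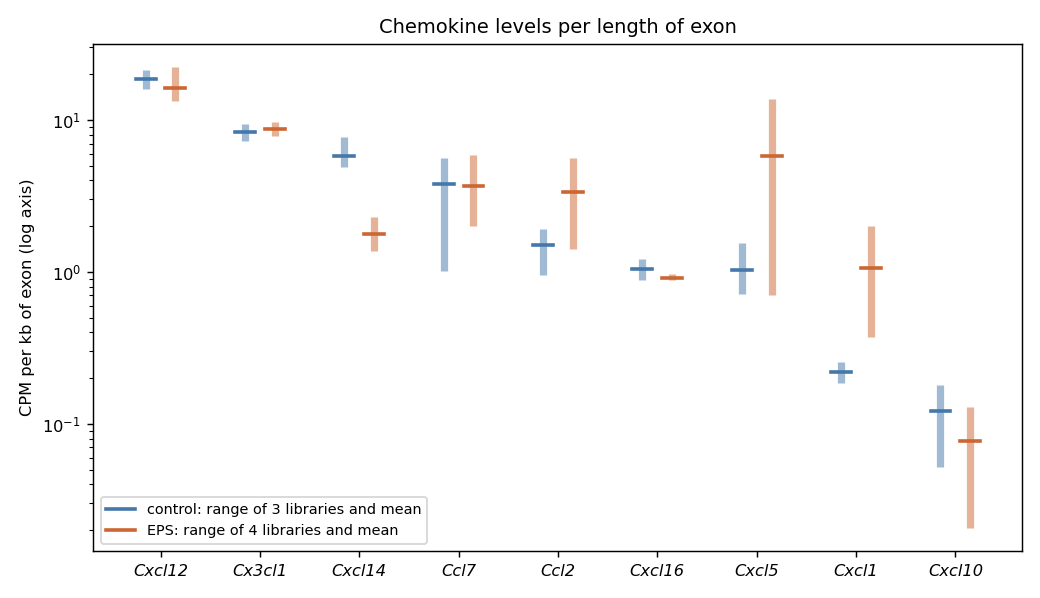
Level of 9 chemokine genes in CPM per kb of exon (log axis), as the range over the libraries of each group (bars) and the mean (line), ordered by the control mean. Ccl5, listed at 0 in the control group, is not drawn. Cxcl12 and Cx3cl1 lead in both groups, while Cxcl14 sits lower in the EPS group (1.76 CPM per kb) than in the control (5.83 CPM per kb).

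Cxcl14, a CXC chemokine made at rest by epithelia and other tissues and known to act on monocytes and dendritic cells, was down-regulated in the EPS group. Its level was 8.92, 14.1 and 8.91 CPM in control replicates 1, 3 and 4, from 153, 235 and 197 reads. In EPS replicates 1 to 4 it was 4.19, 3.65, 2.56 and 2.5 CPM, from 90, 75, 56 and 47 reads. Every EPS library lay below every control library. The mean was 10.7 ± 3.02 CPM (SD) over the 3 control libraries and 3.22 ± 0.835 CPM (SD) over the 4 EPS libraries, 3.30 times lower.
On the log2(CPM + 1) scale the fold change of Cxcl14 was -1.46 (standard error 0.28, 95% interval from -2.09 to -0.82). It passed the thresholds in limma, more than 2-fold at an unadjusted P below 0.01, and its Benjamini-Hochberg adjusted p over the 19144 genes, 0.0965 in limma, misses 0.05. The difference in mean CPM gave p = 0.0286 in the two-sided exact permutation test, the smallest p that 35 assignments of the libraries allow. In edgeR on the recovered reads the log2 fold change was -1.82 (adjusted p = 0.00203), and in DESeq2 it was -1.83 (standard error 0.31, adjusted p = 1.32e-06). Cxcl14 passed both thresholds in each of 15 alternative fits, with log2 fold changes from -1.83 to -1.25. Its adjusted p over those fits ranged from 1.32e-06 to 0.518. Without control replicate 4 the value was -1.56. The gene (ENSMUSG00000021508.11) lies on the minus strand of GRCm38 at chr13:56288643-56296551 and overlaps with no other annotated gene.
Of the 10 members, limma thus called 1 lower and 0 higher. Over all tested genes it called 0.439% lower and 0.966% higher, and 0.141% had an adjusted p under 0.05 in either direction. All members were above 0 in at least 1 library and so were tested, and their median log2 fold change was 0.06, against 0.04 over all 19144 genes. At an unadjusted P under 0.05 limma had 2 of the 10 members, Cxcl14 and Cxcl1, beside 11.6% of all genes. Over all genes limma called 269, of which 185 were higher. After quantile normalization 122 of 242 calls were higher, and after median-of-ratios scaling 134 of 254 were. Among genes with a mean of at least 1 CPM the median log2 fold change was 0.10 in limma, and median-of-ratios scaling moved it to -0.0048, so sizes near 0.1 are no larger than this shift.

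**Figure D2:**
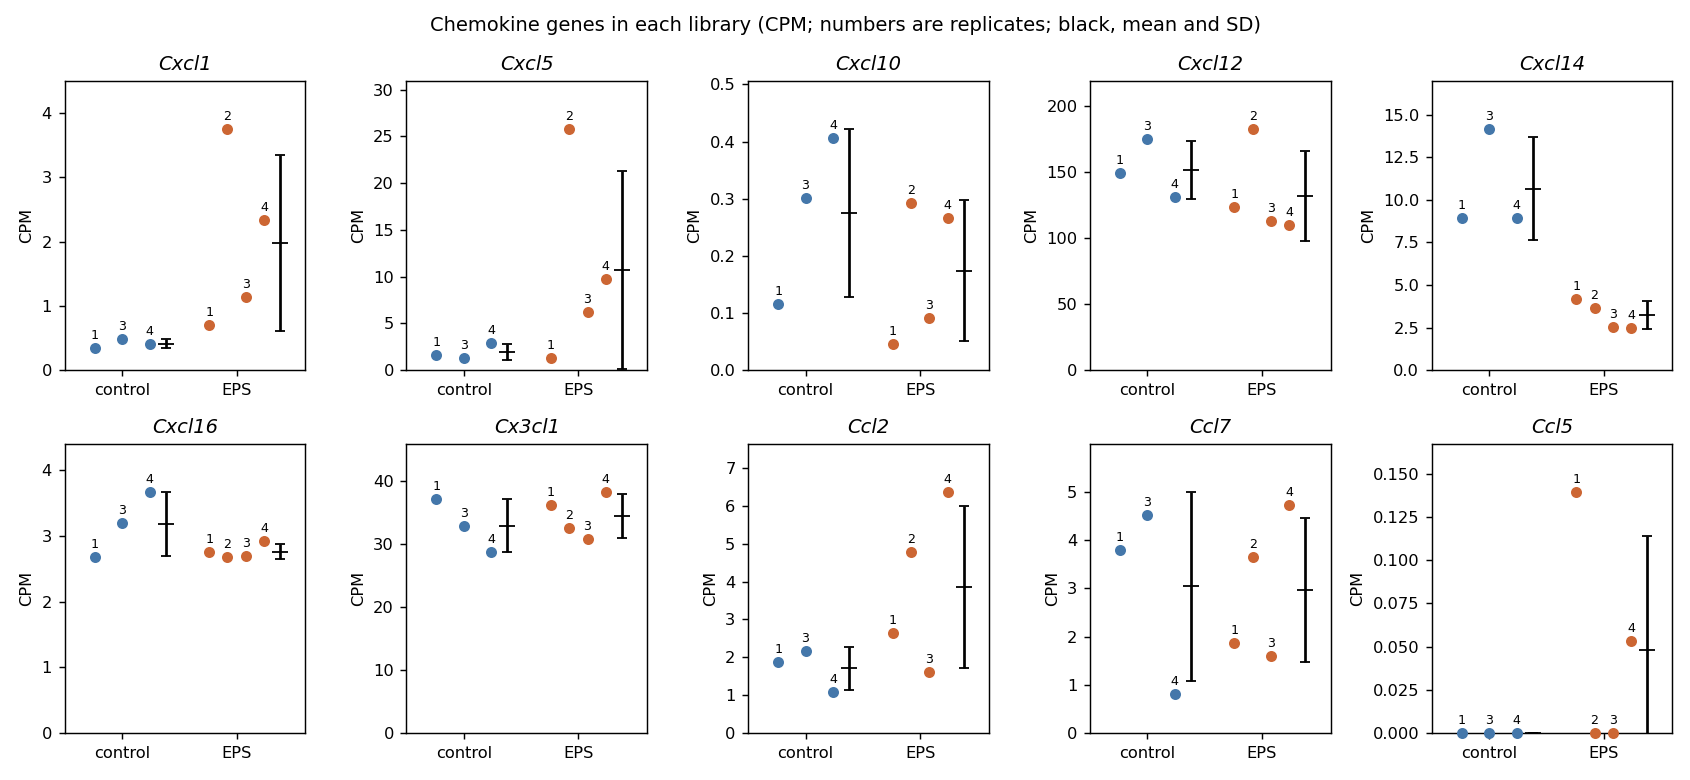
CPM of the 10 chemokine genes in each library, with 1 panel a gene and a linear axis from 0. Points are libraries, numbered by replicate, with control in blue and EPS in orange, and black marks give the mean and SD. The EPS libraries of Cxcl14 (2.5 to 4.19 CPM) lie below all control libraries, those of Cxcl1 (0.698 to 3.75 CPM) above, and EPS replicate 2 is the highest library for Cxcl1 and Cxcl5.

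Cxcl1 and Cxcl5, the CXCR2 ligands that recruit neutrophils, had the largest positive log2 fold changes in limma among the members. In edgeR the fitted value of Ccl5, a gene at the floor, was larger and is not read here. Both genes lie in the CXC cluster of chromosome 5, Cxcl5 (ENSMUSG00000029371.7) at chr5:90759360-90761624 and Cxcl1 (ENSMUSG00000029380.11) at chr5:90891241-90893115, on the plus strand.
Cxcl1 was under 1 CPM in the control group, with 6, 8 and 9 reads in control replicates 1, 3 and 4, or 0.350, 0.481 and 0.407 CPM. EPS replicates 1 to 4 had 15, 77, 25 and 44 reads, or 0.698, 3.75, 1.14 and 2.34 CPM. All EPS libraries lay above all control libraries. The means were 0.413 ± 0.0660 CPM (SD, 3 control libraries) and 1.98 ± 1.37 CPM (SD, 4 EPS libraries), a ratio of 4.80.
The log2 fold change of Cxcl1 on the log2(CPM + 1) scale, which understates changes of genes this low, was 0.96 (standard error 0.32, 95% interval from 0.24 to 1.69, limma, adjusted p = 0.277). It missed both thresholds there, and the two-sided exact permutation test gave p = 0.0857. On reads it passed both, with a log2 fold change of 2.12 in edgeR (adjusted p = 0.0852) and 2.12 in DESeq2 (adjusted p = 0.0293). Over its alternatives the adjusted p ranged from 0.0293 to 0.565. EPS replicate 1 was nearest the control group, and without it limma called Cxcl1 as well, with a log2 fold change of 1.20. Without EPS replicate 2, the highest library, the value was 0.70.
Cxcl5 differed widely among the EPS libraries. Control replicates 1, 3 and 4 held 27, 22 and 64 of its reads, or 1.57, 1.32 and 2.89 CPM. EPS replicates 1 to 4 had 28, 529, 136 and 183 reads, or 1.30, 25.8, 6.21 and 9.72 CPM. EPS replicate 1 lay below every control library and the other 3 EPS libraries above. The means were 1.93 ± 0.843 CPM (SD, 3 control libraries) and 10.8 ± 10.6 CPM (SD, 4 EPS libraries), a ratio of 5.57.
For Cxcl5 limma gave a log2 fold change of 1.54 with a 95% interval from -0.05 to 3.14 (adjusted p = 0.446), and the two-sided exact permutation test gave p = 0.257. Without EPS replicate 1 the log2 fold change was 2.16 and limma called the gene, and without EPS replicate 2 it was 0.98. On reads, edgeR gave 2.31 (adjusted p = 0.0492) and called it, while DESeq2 gave 2.32 (standard error 0.92, adjusted p = 0.170) and did not. Over its alternatives the adjusted p ranged from 0.0492 to 0.703. Of the words of 50 bases in its transcripts, 13 of 1876 also occur in other genes, and the other 9 members share none, so few reads could have been split.
The EPS libraries stood in the same order for Cxcl1 and Cxcl5, with replicate 1 lowest, then 3, 4 and 2. Within a library, Cxcl5 had 2.75 to 7.11 times as many reads as Cxcl1 in the control group and 1.87 to 6.87 times as many in the EPS group, so these ratios overlapped. Counted over the members, edgeR called 2 higher, Cxcl1 and Cxcl5, and 1 lower, Cxcl14. Over all genes it called 1.72% higher and 1.57% lower. At an adjusted p under 0.05 edgeR had 2 members, Cxcl5 and Cxcl14, and 1.51% of all genes. DESeq2 called 2 members, Cxcl1 and Cxcl14, and 3.06% of all genes it tested. Groups did not overlap with EPS on top for 1 member, Cxcl1, and with EPS underneath for 1, Cxcl14, against 7.76% and 2.85% of all genes.

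**Figure D3:**
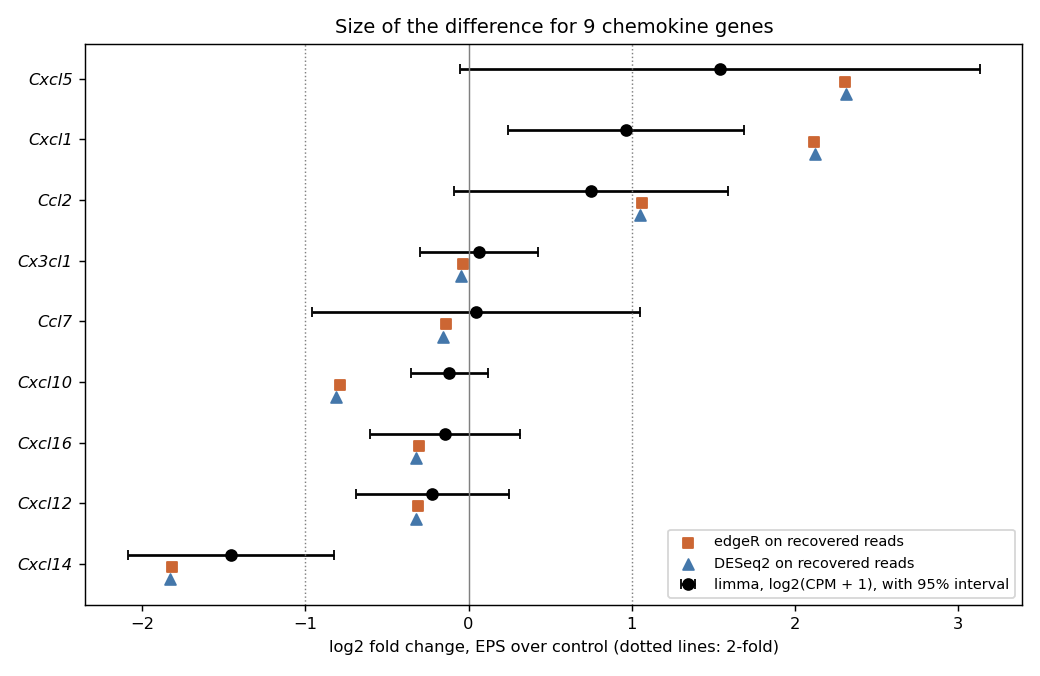
log2 fold change of 9 chemokine genes, EPS over control, in limma on log2(CPM + 1) with its 95% interval (black circles), edgeR (orange squares) and DESeq2 (blue triangles) on recovered reads, with dotted lines at 2-fold. Ccl5, at 3 reads or fewer in each library, is not drawn. Cxcl14 lies below 0 in all 3 tools (-1.46, -1.82 and -1.83), and the interval of Cxcl5 runs from -0.05 to 3.14.

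The bases just upstream of a gene are shown for the 2 members whose libraries did not overlap between groups and have an entry in RefSeq, Cxcl1 and Cxcl14, and for Cxcl10 as the interferon-induced comparison. Of the 10 members, 5 matched an entry of the promoter table (RefSeq, GRCm38.p6). Each sequence is the 250 bases before the RefSeq start, 5′ to 3′ on the strand of the gene. Capitals mark a match on either strand to GGGNNTTTCC, a form of the NF-kB site, or to TTTCNNTTTC, a form of the interferon-stimulated response element (ISRE).
Cxcl1, chr5:90890995-90891244, plus strand: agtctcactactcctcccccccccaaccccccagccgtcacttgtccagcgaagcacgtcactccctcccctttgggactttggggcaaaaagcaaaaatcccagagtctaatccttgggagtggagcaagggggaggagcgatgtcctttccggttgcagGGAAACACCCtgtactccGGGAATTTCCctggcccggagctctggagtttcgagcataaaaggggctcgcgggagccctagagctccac
Cxcl10, chr5:92348890-92349139, minus strand: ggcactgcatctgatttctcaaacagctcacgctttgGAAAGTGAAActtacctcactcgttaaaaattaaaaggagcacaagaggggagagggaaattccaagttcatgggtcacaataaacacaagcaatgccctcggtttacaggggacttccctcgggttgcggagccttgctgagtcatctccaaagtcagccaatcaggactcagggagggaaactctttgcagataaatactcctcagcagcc
Cxcl14, chr13:56296552-56296801, minus strand: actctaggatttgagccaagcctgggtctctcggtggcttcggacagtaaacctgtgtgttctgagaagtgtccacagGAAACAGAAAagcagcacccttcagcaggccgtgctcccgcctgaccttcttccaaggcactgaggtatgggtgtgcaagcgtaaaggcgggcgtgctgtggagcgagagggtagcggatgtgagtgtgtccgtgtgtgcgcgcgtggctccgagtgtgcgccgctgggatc
Cxcl1 had 2 matches to the NF-kB letters, from -89 to -80 on the opposite strand and from -71 to -62 on the strand of the gene, counted back from the start. Cxcl10 had 1 match to the ISRE letters from -213 to -204, and Cxcl14 had 1 from -172 to -163, both on the opposite strand. The upstream windows of Cxcl12 and Cx3cl1 had no match to either. Of 32851 promoters of the same length, 1.41% held the NF-kB letters and 2.98% the ISRE letters. A match says only that these letters are present. Other forms of the 2 sites were not searched for, so a window without capitals may still hold one. This includes NF-kB sites in the window of Cxcl10.

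Ccl2 and Ccl7, both ligands of CCR2 that attract monocytes, are neighbours on chromosome 11 (Ccl2, ENSMUSG00000035385.5, chr11:82035571-82037453, and Ccl7, ENSMUSG00000035373.2, chr11:82045712-82047525). Neither passed the thresholds in any of the fits.
Ccl2 was at 1.87, 2.17 and 1.08 CPM in control replicates 1, 3 and 4, from 32, 36 and 24 reads. It was at 2.65, 4.77, 1.60 and 6.37 CPM in EPS replicates 1 to 4, from 57, 98, 35 and 120 reads. EPS replicate 3 lay among the control libraries and the other 3 EPS libraries lay above them. The ratio of the mean levels was 2.26, from 1.71 ± 0.558 CPM (SD, 3 control libraries) to 3.85 ± 2.14 CPM (SD, 4 EPS libraries). Its log2 fold change in limma was 0.75 with a 95% interval from -0.09 to 1.59 (adjusted p = 0.482), and in edgeR it was 1.07 (adjusted p = 0.321). A gene on the opposite strand, Gm17268, overlaps with Ccl2, and whether reads were counted by strand is not given in the sources used here.
Control replicates 1, 3 and 4 held 65, 75 and 18 reads of Ccl7, and control replicate 4 was at 0.814 CPM well under the 3.79 and 4.51 CPM of control replicates 1 and 3. In EPS replicates 1 to 4 it had 40, 75, 35 and 89 reads, or 1.86, 3.65, 1.60 and 4.73 CPM. The groups overlapped, and the log2 fold change was 0.05 with a 95% interval from -0.96 to 1.05 (limma, adjusted p = 0.968). Its sign turned in 8 of 15 alternative fits, and without control replicate 4 the value was -0.45.
Within a library, Ccl2 had 0.492, 0.480 and 1.33 times as many reads as Ccl7 in control replicates 1, 3 and 4. In EPS replicates 1 to 4 the ratio was 1.43, 1.31, 1.00 and 1.35. Control replicates 1 and 3 were below all EPS libraries in this ratio, and control replicate 4 was among them.

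Cxcl12, Cx3cl1 and Cxcl16, the members whose receptors CXCR4, CX3CR1 and CXCR6 guide progenitors, monocytes and lymphocytes, showed no difference beyond the spread of the libraries. Cxcl12 (ENSMUSG00000061353.11, chr6:117168535-117181367) was at 149, 175 and 131 CPM in the control and at 124, 182, 113 and 110 CPM in the EPS group. EPS replicate 2 was the highest of the 7 libraries and the other EPS libraries were lower than every control library. The log2 fold change was -0.22 with a 95% interval from -0.69 to 0.25 (limma, adjusted p = 0.733). It was -0.39 without EPS replicate 2, -0.12 without control replicate 3 and -0.14 without EPS replicate 4.
Cx3cl1, or fractalkine (ENSMUSG00000031778.13, chr8:94772009-94782427), was the most even of the abundant members. It was at 37.1, 32.9 and 28.8 CPM in the control group and at 36.2, 32.5, 30.7 and 38.2 CPM in the EPS group, so the groups overlapped. The means were 32.9 ± 4.16 CPM (SD, 3 control libraries) and 34.4 ± 3.42 CPM (SD, 4 EPS libraries). Its log2 fold change of 0.07 had a 95% interval from -0.30 to 0.43 (limma, adjusted p = 0.880), which leaves out a 2-fold change in either direction, and its sign turned in 5 of 15 alternative fits.
Cxcl16 (ENSMUSG00000018920.11, chr11:70453983-70459984) was at 2.68, 3.19 and 3.66 CPM in the control and at 2.75, 2.68, 2.69 and 2.92 CPM in the EPS group. The EPS libraries lay within or next to the lower part of the control range. The log2 fold change was -0.15 with a 95% interval from -0.61 to 0.32 (limma, adjusted p = 0.814). It was -0.06 without control replicate 4 and -0.23 without control replicate 1. A gene on the opposite strand, Zmynd15, overlaps with Cxcl16.

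Cxcl10 and Ccl5, which interferons and NF-kB induce in inflamed tissue and which attract T cells, were the lowest members. Cxcl10 (ENSMUSG00000034855.13, chr5:92346638-92348889) had 2, 5 and 9 reads in the control libraries and 1, 6, 2 and 5 reads in the EPS libraries, all under 1 CPM. The groups overlapped, and the log2 fold change of -0.12 (95% interval from -0.35 to 0.12, limma, adjusted p = 0.717) was within the spread. That value was -0.04 without control replicate 4 and -0.21 without control replicate 1. The log2(CPM + 1) scale understates changes of a gene this low, so the interval does not leave out a larger change. On reads the log2 fold change was -0.79 in edgeR (adjusted p = 0.763) and -0.82 in DESeq2 (standard error 1.05, adjusted p = 0.840). Cxcl10 lies opposite Art3, a gene on the other strand. Ccl5 (ENSMUSG00000035042.2, chr11:83525778-83530518) had 0 reads in each control library and 3, 0, 0 and 1 reads in EPS replicates 1 to 4. Neither group rises over the floor of 3 reads, which allows no fold, and no difference was detectable at this depth.

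The other chemokine ligands were mostly silent. Of 28 on the list, 13 were listed at 0 in every library, 6 had at most 3 reads in any library, and 9 had more. Among those at 0 were Cxcl2 and Cxcl3, the ligands closest to Cxcl1. In limma 0 of 15 tested passed the thresholds, and 3 had an unadjusted P under 0.05 (11.6% of all genes). In edgeR 1 was called lower (1.57% of all genes), and DESeq2 called 1 (3.06% of all genes in either direction). Their median log2 fold change was 0.02, against 0.04 over all genes.
The ligand called on reads was Ccl11, or eotaxin, which attracts eosinophils through CCR3. Control replicates 1, 3 and 4 held 17, 16 and 73 of its reads, or 0.991, 0.963 and 3.30 CPM, and 10, 8, 8 and 5 reads in EPS replicates 1 to 4, or 0.465, 0.390, 0.365 and 0.266 CPM. All EPS libraries were below all control libraries. The log2 fold change was -0.90 in limma (standard error 0.26, adjusted p = 0.216), just short of 2-fold, and -2.33 in edgeR (adjusted p = 0.0422). Much of the size came from control replicate 4: without it the value in limma was -0.53. Over its alternatives in limma that left out a library, the value ranged from -1.09 to -0.53.
Ccl25, a CCR9 ligand, was at 3.15, 1.75 and 1.45 CPM in the control and at 3.21, 4.53, 2.74 and 4.30 CPM in the EPS group, with a log2 fold change of 0.61 (limma, adjusted p = 0.427). A gene on the opposite strand, Elavl1, overlaps with it. Ccl8 was at 3.21, 2.05 and 4.57 CPM in the control. In EPS replicate 2 it was at 6.33 CPM and in the other EPS libraries at 1.06 to 1.58 CPM, below every control library.

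The transcripts of the receptors were few as well. Of 23 receptor genes 7 were listed at 0, among them Cxcr2, the receptor of Cxcl1 and Cxcl5, and Cxcr3, the receptor of Cxcl10, and 5 had a mean of at least 1 CPM. In limma 0 of 16 tested passed the thresholds, with 2 at an unadjusted P under 0.05. In edgeR 1 was called lower (1.57% of all genes) and in DESeq2 0. The call of edgeR was Ccr2, the receptor of Ccl2 and Ccl7, which had 13 reads in control replicate 4 and 0 in every other library, so it rests on that library.
The receptors of Cxcl12 were the best expressed. Cxcr4 was at 47.0, 38.7 and 52.6 CPM in the control and at 24.6, 74.0, 42.6 and 23.5 CPM in the EPS group, with a log2 fold change of -0.31 (limma, adjusted p = 0.804). That value was -0.63 without EPS replicate 2, -0.12 without EPS replicate 1 and -0.10 without EPS replicate 4. Ackr3, which takes up and removes Cxcl12, was at 22.3, 26.6 and 27.8 CPM in the control and at 19.0, 32.7, 18.5 and 18.1 CPM in the EPS group (log2 fold change -0.24, limma, adjusted p = 0.755), and its value was -0.44 without EPS replicate 2. In both genes EPS replicate 2 was the highest library, as it was for Cxcl12 itself. Cxcr6, the receptor of Cxcl16, was at 3.79 ± 1.52 CPM (SD) over the 3 control libraries and 3.92 ± 0.993 CPM (SD) over the 4 EPS libraries. Cxcr5 was at 1.54 ± 0.527 CPM (SD, 3 control libraries) and 1.11 ± 0.276 CPM (SD, 4 EPS libraries). Genes on the opposite strand, Fyco1 and Bcl9l, overlap with Cxcr6 and Cxcr5. Xcr1 was at 0.525, 0.662 and 1.63 CPM in the control and at 2.51, 1.90, 2.06 and 1.70 CPM in the EPS group. All its EPS libraries were above all control libraries, with a log2 fold change of 0.69 (limma, adjusted p = 0.261). That value was 0.93 without control replicate 4 and 0.535 without control replicate 1.

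Among genes that drive chemokine transcription, Il1b was up-regulated. Il1b encodes interleukin 1 beta, a cytokine known to induce Cxcl1, Cxcl5 and Ccl2 through NF-kB in many cells. It was at 1.63, 4.15 and 2.80 CPM in control replicates 1, 3 and 4, from 28, 69 and 62 reads, and at 9.59, 24.9, 10.2 and 11.6 CPM in EPS replicates 1 to 4, from 206, 512, 223 and 218 reads. All EPS libraries lay above all control libraries, and EPS replicate 2 was again the highest. The log2 fold change was 1.91 (standard error 0.38, limma, adjusted p = 0.0995), past both thresholds, and it was 2.18 in edgeR (adjusted p = 0.00228). Left out in turn, the libraries gave values from 1.62 to 2.15. An antisense gene, Il1bos, overlaps with Il1b.
It was the only call among 15 tested inducers and their receptors in limma and in edgeR. Over all genes limma called 0.966% higher and edgeR 1.72%. Tnf had 2 reads in EPS replicate 2 and 0 elsewhere, and Il6 had 0 to 10 reads in the control and 3 to 13 in the EPS libraries. Of 19 NF-kB and interferon factors limma, edgeR and DESeq2 each called 0, and limma had 1 at an unadjusted P under 0.05. Of the 19, 13 had a negative log2 fold change and 6 a positive one, with a median of -0.16. Groups did not overlap for 1 factor in each direction, where 7.76% of all genes had EPS on top and 2.85% underneath. Ikbke, a kinase of the interferon and NF-kB pathways, had all EPS libraries below all control libraries but passed no threshold. It was at 8.02 ± 1.32 CPM (SD) over the 3 control libraries and 5.53 ± 0.779 CPM (SD) over the 4 EPS libraries. Its log2 fold change was -0.46 (limma, adjusted p = 0.504). The gene at P under 0.05 was Rela, the transactivating NF-kB subunit, with 66.1 ± 6.54 CPM (SD) over the 3 control libraries and 85.7 ± 3.04 CPM (SD) over the 4 EPS libraries. Its log2 fold change was 0.37 in limma (adjusted p = 0.299), 0.27 in edgeR (adjusted p = 0.672) and 0.26 in DESeq2 (adjusted p = 0.595). Of the 12 genes for proteases and heparan sulfate proteins that cut or hold chemokines limma, edgeR and DESeq2 each called 0. In limma 2 had an unadjusted P under 0.05, Mmp2 and Sdc1. Sdc1 was at 140, 140 and 285 CPM in control replicates 1, 3 and 4 and at 147, 102, 101 and 105 CPM in EPS replicates 1 to 4. Much of its difference lies in control replicate 4, and EPS replicate 1 was above the other control libraries. No fitted value without control replicate 4 is given for Sdc1. Mmp2, a protease that cleaves Cxcl12 and Ccl7, was at 650 ± 54.6 CPM (SD) over the 3 control libraries and 455 ± 90.9 CPM (SD) over the 4 EPS libraries, with a log2 fold change of -0.53 (limma, adjusted p = 0.383). Cxcl2, Cxcl3, Cxcr2, Cxcr3, Tnf, Il6, Ikbke, Rela, Mmp2 and Sdc1 were chosen for naming after their values were seen.

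**Figure D4:**
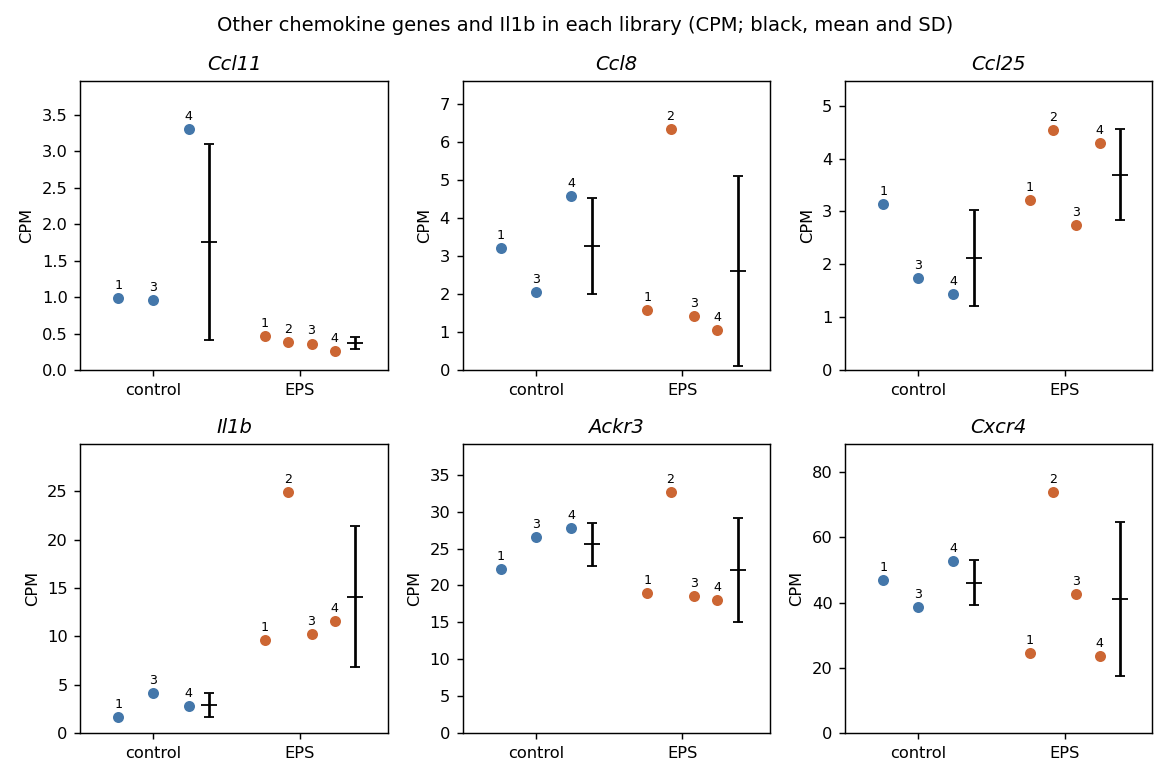
CPM of Ccl11, Ccl8, Ccl25, Il1b, Ackr3 and Cxcr4 in each library, with 1 panel a gene and a linear axis from 0. Points are libraries, numbered by replicate, with control in blue and EPS in orange, and black marks give the mean and SD. The EPS libraries of Il1b (9.59 to 24.9 CPM) lie above all control libraries and those of Ccl11 (0.266 to 0.465 CPM) below, and EPS replicate 2 is the highest library for Il1b, Ccl8, Ccl25, Ackr3 and Cxcr4.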

How the data were processed

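RNA-seq of C2C12 myotubes was analysed in 7 libraries, 3 control and 4 EPS, grouped by their labels. The authors selected poly(A) RNA, made directional libraries and aligned paired-end reads to GRCm38 with STAR 2.5.4b, per the labels. The authors deposited CPM, and dividing by the value of 1 read in each library gave whole reads, within 0.1 of a read, for 100% of the values. The counter, the annotation and the strand setting are not given in the sources used here.

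log2(CPM + 1) of the 19144 genes above 0 was tested in limma 3.58.1 (R 4.3.3) with a mean-variance trend, EPS against control, with no covariate. A call needed a change above 2-fold at an unadjusted P below 0.01, and p-values were adjusted by Benjamini-Hochberg over all these genes. The alternatives tried were quantile normalization, scaling by the median of ratios, genes of at least 1 CPM on average, pseudocounts of 0.5 and 0.1, a P under 0.001, edgeR 4.0.16 and DESeq2 1.42.0 on the recovered reads, the replicate number as a block, and leaving out each library. Single members also had an exact two-sided permutation test of mean CPM over 35 assignments. The fits were tested on simulated data.

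Named were the 10 members, listed ligands and receptors with a mean of at least 1 CPM, genes of the ligand, receptor, inducer, NF-kB and processing lists called in limma or edgeR, and marker genes behind the summed levels described. The members and lists were chosen with earlier results of these data known.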

Additional observations from a re-analysis of the deposited data

Results flagged for a closer look

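Among 19 named genes with reads in the EPS group, 3 had an EPS library whose gap to the others passed Dixon's 95% critical value for 4 samples. It was EPS replicate 2 each time, and it was the highest. Ccl8 was at 6.33 CPM there (130 reads), against 1.06 to 1.58 CPM in the other EPS libraries. Ackr3 was at 32.7 CPM (671 reads), against 18.1 to 19.0 CPM. Il1b was at 24.9 CPM (512 reads), against 9.59 to 11.6 CPM. Chance flags about 1 in 20 groups. None of the 10 chemokines described passed this test, although EPS replicate 2 was the highest library for Cxcl1, Cxcl5, Cxcl10 (in the EPS group) and Cxcl12. The 3 control libraries are too few for the test.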

How the results depend on the processing

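Cxcl14 kept its direction and its call in the 15 alternative fits. The count of members called was 1 in limma, 2 with a pseudocount of 0.1, 3 in edgeR and 2 in DESeq2, and 1 to 3 with each library left out. The added members were Cxcl1 (pseudocount of 0.1, edgeR, DESeq2 and without EPS replicate 1) and Cxcl5 (edgeR and without EPS replicate 1). Members whose groups did not overlap were 2, where 7.76% of all genes had EPS on top and 2.85% underneath. With a library left out they were 2 to 4, the most without control replicate 1, where Cxcl10 and Cxcl16 joined. The share of all genes with a library left out is not given, so nothing about the members is read from those counts. For the other ligands 0 became 1, Ccl11, with pseudocounts of 0.5 and 0.1, in edgeR and in DESeq2, and 0 to 1 with a library left out. For the receptors 0 became 1 with a pseudocount of 0.1 (Ccr7, named after its values were seen, 0 to 5 reads in the control and 7 to 22 in the EPS libraries) and 1 in edgeR (Ccr2). The inducer, NF-kB and processing genes kept 1 call, Il1b, in each setting run. Over all genes 269 calls became 601 with a pseudocount of 0.1, 629 in edgeR, 585 in DESeq2 and 106 at a P under 0.001, and 209 to 325 with a library left out. With the replicate block over the 3 shared numbers, without EPS replicate 2, 160 genes were called, and Cxcl14 was at -1.51. The deviations of same-numbered libraries correlated at 0.25, -0.45 and 0.068, and the labels name no shared culture, so the numbers were not taken as pairs. The cause of these shifts was not tested. Depth limits Cxcl10 and Ccl5, at 9 reads or fewer in each library.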
